A study of Rattus norvegicus with 15 samples.

Results

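Bone marrow mesenchymal stem cells that carried a hairpin against Rac1 and had gone through oxygen-glucose deprivation (OGD) were compared with undeprived cells that carried a control hairpin against luciferase. The compared libraries are the 3 labelled shRac1+OGD and the 3 labelled shLuci, 6 of 15 in the series, taken by their sample titles, and all 11515 tested genes of 12169 in the expression table were members of the comparison. All cells were rat cells of the Sprague Dawley strain from femoral bone marrow at passages 3 to 5, and both hairpins were delivered by lentivirus. The shLuci cells stayed in high-glucose medium with serum, whereas the shRac1+OGD cells spent 12 h in sugar-free medium at 1% O2 and then 24 h in reoxygenation. The other libraries, also 3 per group, were uninfected cells (BMSC), undeprived cells with the Rac1 hairpin (shRac1) and deprived cells with the control hairpin (shLuci+OGD). Hairpin and OGD change together between the compared groups, so their parts in any difference below cannot be told apart within this contrast. The labels do not state that replicates were separate cultures or animals, and p-values then measure only the spread between these libraries.

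Rac1, a small GTPase, directs the assembly of actin at the leading edge of cells and is a subunit of the NADPH oxidase complex that makes superoxide. Deprivation of oxygen and glucose followed by reoxygenation is a cell culture model of ischaemia and reperfusion. Low oxygen stabilises the hypoxia-inducible factors (HIF), which induce glycolytic and vascular genes, and the return of oxygen brings oxidative stress, to which the factor NRF2 responds. Immediate early genes such as Fos and Egr1 encode transcription factors that are induced within minutes by serum, growth factors or stress, without new protein synthesis. Mesenchymal stem cells form bone, cartilage and fat cells and secrete trophic factors.

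Levels are FPKM, read fragments per kilobase of transcript, scaled to the mapped fragments of the library, so the depth behind them is unknown. A log2 change is the difference of group means of log2(FPKM + 0.5), which makes changes at low FPKM look smaller, and it is followed by its standard error (SE). A gene is called, and said to have risen or fallen, at a Benjamini-Hochberg adjusted p below 0.05 in limma over all genes tested. The FPKM of the 6 libraries summed to between 483822 and 512263, and each library correlated with its own group at a mean r across genes of 0.989 to 0.994. BMSC replicate 2, which enters the shared estimate of the spread though not the contrast, stood apart with a sum of 628685 FPKM, 144 genes at 0 and a mean r of 0.915 with its group. Counts are therefore also given without it. That fit called 1937 of all 11515 tested genes higher and 1422 lower, and list counts from it are to be read beside these.

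Rac1, the gene the hairpin targets (ENSRNOG00000001068, chromosome 12, 13090172 to 13111873, plus strand; the sources used here name no genome build), stood at 165, 158 and 146 FPKM in the 3 shLuci libraries and at 152, 154 and 157 FPKM in the 3 libraries labelled shRac1+OGD. The groups overlapped, and the spread of the control libraries covered all of the others. The fold was 0.991 with a 95% confidence interval of 0.883 to 1.11 (limma adjusted p = 0.963, exact two-sided permutation p = 0.8, where 0.1 is the smallest p that 3 against 3 allow). The Rac1 transcript therefore does not tell the libraries labelled shRac1+OGD from the controls, and each direction below rests on the sample titles. Rac3, the close relative of Rac1, stood at 0.815, 0.949 and 1.34 against 1.98, 1.45 and 1.15 FPKM and was not called (log2 change 0.40, SE 0.23, limma adjusted p = 0.384). Rac2 was not analysed here. Among 14 tested small GTPases related to Rac1, itself included, Rhoj, a Cdc42-related GTPase, rose from 19.5, 19.4 and 19.8 to 29.1, 27.8 and 29.6 FPKM, and Rhob fell from 158, 153 and 145 to 124, 118 and 122 FPKM. The call of Rhob was lost whichever of the 6 libraries was left out, whereas 4 members fell without BMSC replicate 2. On the TPM scale 2 members rose and 0 fell.

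Of the 11515 genes tested, 1239 (10.8%) were called, 676 higher (5.87%) and 563 lower (4.89%) in the libraries labelled shRac1+OGD. These shares are the background for the counts of every list reported here. The falls reached further than the rises. At least 4-fold differences were found for 25 lower genes (0.217%) and 6 higher genes (0.0521%), and at least 2-fold differences for 147 lower (1.28%) and 128 higher genes (1.11%). The median log2 change of all tested genes was 0.03, with quartiles of -0.12 and 0.21, and 2425 genes had an unadjusted p below 0.05. In 5127 genes (44.5%) the 6 libraries did not overlap between the groups, 2897 of them higher (25.2%) and 2230 lower (19.4%), and every called gene was among them. Without BMSC replicate 2 the count of calls was 3359 (1937 higher), and with the 6 compared libraries alone it was 3103. Leaving out any of the 6 gave 813 to 893 calls, with 824 without shLuci replicate 2 and 813 without shRac1+OGD replicate 2.

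**Figure D1:**
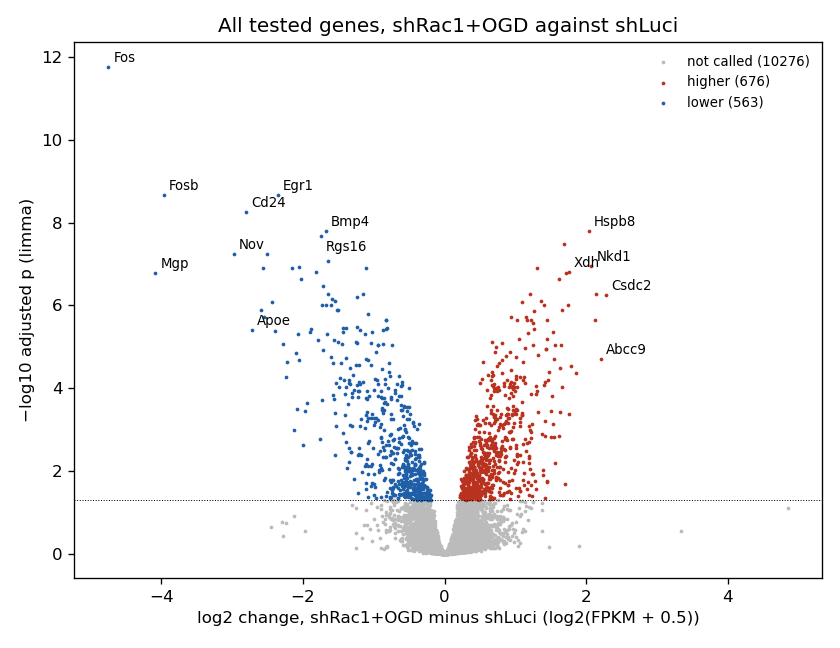
Each point is 1 of the 11515 tested genes, with the log2 change of shRac1+OGD against shLuci on the x axis and −log10 of the limma adjusted p on the y axis, red for the 676 genes called higher, blue for the 563 called lower and grey for the rest, and a dotted line at an adjusted p of 0.05. Fos, Fosb and Mgp stand farthest to the left among the called genes, and Csdc2 and Abcc9 farthest to the right.

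Most immediate early genes fell. Of 22 tested members 14 fell, 1 rose and 7 were not called, against 4.89% and 5.87% of all tested genes called lower and higher, and the median log2 change of the list was -0.82 against 0.03 for all genes. Their summed level was 1307, 1247 and 1207 FPKM in the shLuci libraries and 679, 686 and 698 FPKM in the libraries labelled shRac1+OGD. The 14 falls were found in each of the 6 fits that left out 1 compared library, and 16 fell and 3 rose without BMSC replicate 2. These cells had been in reoxygenation for 24 h at the time of harvest, per the labels.

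Fos, a subunit of the transcription factor AP-1 (ENSRNOG00000008015, chromosome 6, 109300433 to 109303299, plus strand), stood at 156, 158 and 156 FPKM in the shLuci libraries and at 5.97, 5.07 and 5.05 FPKM in the libraries labelled shRac1+OGD. It had the most negative log2 change of all called genes at -4.75 (SE 0.08, limma adjusted p = 1.72e-12), and no library of one group came near the other. Fosb, its paralogue, fell from 39, 39 and 35.6 to 1.98, 2.05 and 1.83 FPKM (log2 change -3.97, SE 0.13, limma adjusted p = 2.19e-09). Egr1, a zinc finger factor induced by growth signals, fell from 141, 131 and 123 to 27.6, 25 and 23.5 FPKM (log2 change -2.35, SE 0.08, limma adjusted p = 2.19e-09). Egr2 of the same family fell from 3.65, 3.71 and 3.69 to 0.471, 0.408 and 0.453 FPKM. The remaining falls were smaller, down to -0.42 on the log2 scale for Klf10. They included the orphan nuclear receptors Nr4a1 (-2.03) and Nr4a2 (-1.15), the Krüppel-like factors Klf4 (-1.58) and Klf6 (-0.62), and the antiproliferative gene Btg2 (-1.24). They also included the AP-1 genes Jun (-0.82) and Junb (-0.83), the MAP kinase phosphatase Dusp1 (-0.82) and Zfp36 (-0.85), whose protein speeds the decay of cytokine mRNAs. Members of the same families did not all fall. The AP-1 genes Fosl1 and Fosl2 had log2 changes of 0.06 and 0.36 and were not called, and Dusp6, another MAP kinase phosphatase, stood at 56.9, 56.4 and 56.3 against 66.8, 66.6 and 66.8 FPKM (log2 change 0.24, limma adjusted p = 0.0509). Arc, known from neurons as an activity-regulated gene, was the member that rose (0.58), and no member rose on the TPM scale or without shLuci replicate 3, shRac1+OGD replicate 1 or shRac1+OGD replicate 2.

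Serum response factor acts on many of these genes through the CArG box, and CREB acts through the sequence TGACG. In RefSeq promoters of the GRCr8 assembly, taken from 250 bases before to 50 after the gene start, the CArG box was present in 548 of 33469 (1.64%) and TGACG, searched on both strands, in 7097 (21.2%). These shares cover all RefSeq promoters and not those of the tested genes alone, so they are no matched background for the list. By their letters the motifs cannot overlap. A promoter was matched by symbol for 16 of the 22 immediate early genes, 11 of the 14 that fell among them, and not for Fos, Jun, Klf10, Myc, Ier3 and Arc. The CArG box was found in 4 of the 16, Egr1, Egr2, Zfp36 and Klf6, all of which fell, and TGACG in 9 of the 16 and 7 of the 11 that fell. The promoters of 3 of them are shown because the fallen genes with a CArG box differ in where it lies. The capitals mark the CArG box, which begins 83 bases before the start in Egr2 (GRCr8 chr20:21054392-21054691, minus strand), 32 before it in Zfp36 (chr1:92799059-92799358, minus strand) and 201 before it in Klf6 (chr17:69458429-69458728, minus strand).
Egr2: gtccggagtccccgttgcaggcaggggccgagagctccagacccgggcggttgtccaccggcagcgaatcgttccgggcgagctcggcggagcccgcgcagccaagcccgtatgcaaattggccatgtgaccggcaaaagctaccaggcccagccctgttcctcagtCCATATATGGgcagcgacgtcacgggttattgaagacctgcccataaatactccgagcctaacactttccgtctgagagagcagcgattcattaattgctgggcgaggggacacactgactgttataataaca
Zfp36: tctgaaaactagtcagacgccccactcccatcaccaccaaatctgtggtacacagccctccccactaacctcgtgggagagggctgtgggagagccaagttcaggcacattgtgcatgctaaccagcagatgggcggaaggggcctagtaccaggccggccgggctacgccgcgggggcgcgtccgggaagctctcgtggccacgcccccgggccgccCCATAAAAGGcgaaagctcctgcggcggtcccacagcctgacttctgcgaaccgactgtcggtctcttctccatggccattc
Klf6: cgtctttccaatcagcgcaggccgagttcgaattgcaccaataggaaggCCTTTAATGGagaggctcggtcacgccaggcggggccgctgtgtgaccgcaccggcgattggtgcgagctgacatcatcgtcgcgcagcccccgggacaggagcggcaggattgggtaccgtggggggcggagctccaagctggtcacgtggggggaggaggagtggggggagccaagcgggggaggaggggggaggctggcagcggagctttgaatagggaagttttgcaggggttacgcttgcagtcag
Egr2, Zfp36 and Klf6 fell by 2.15, 0.85 and 0.62 on the log2 scale. A match of letters is no evidence of binding, and no binding was measured here.

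Outside the immediate early genes, the steepest fall belonged to Mgp, the gene of the secreted matrix Gla protein, which restrains calcification (ENSRNOG00000005695, chromosome 4, 170856751 to 170860225, minus strand). It stood at 185, 160.0 and 169.9 FPKM in the shLuci libraries and at 9.74, 10.1 and 9.1 FPKM in the libraries labelled shRac1+OGD (log2 change -4.09, SE 0.22, limma adjusted p = 1.64e-07). Nov, a secreted matricellular protein of the CCN family, fell from 63.9, 66.7 and 62.8 to 7.23, 7.63 and 8.54 FPKM (log2 change -2.97, SE 0.14, limma adjusted p = 5.65e-08). Cd24, a small surface glycoprotein, fell from 13.2, 14.2 and 13.9 to 1.71, 1.51 and 1.4 FPKM. Within each group these levels were tight, and the lowest control library lay several times above the highest deprived one. Apoe, the lipid carrier apolipoprotein E, fell from 13.6, 12.7 and 12.2 to 1.42, 1.62 and 1.5 FPKM, and Gjb2, a gap junction connexin, fell from 7.7, 7.7 and 7.27 to 1.06, 0.688 and 0.784 FPKM. Parm1 fell by 2.50, Palmd by 2.56 and Wfdc1 by 2.23 on the log2 scale. The calcium-linked genes Pln, which encodes phospholamban, the inhibitor of the sarcoplasmic calcium pump, and S100a16 fell by 2.28 and 2.24. Pln overlaps Cep85l on the opposite strand in the table, and the sources used here do not say whether counting used strand. Ctsz, a lysosomal cathepsin, fell by 2.39 and was the member that fell among 44 lysosome genes, of which 3 rose, Ctsl and Gusb among them. Over all tested genes 4.89% fell and 5.87% rose, so the lysosome list did not stand out by its counts. The call of Gusb was lost in 5 of the 6 fits that left out a compared library. The lysosome list gave 1 rise and 2 falls after median-of-ratios scaling, 3 falls on the TPM scale and 5 falls after quantile normalization, and 1 rise without shLuci replicate 2, shLuci replicate 3, shRac1+OGD replicate 2 or shRac1+OGD replicate 3.

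Among the rises, Hspb8, a small heat shock protein that takes part in chaperone-assisted autophagy, went from 5.97, 6.82 and 5.78 to 25.1, 26.9 and 28.5 FPKM (log2 change 2.03, SE 0.08, limma adjusted p = 1.59e-08). The gene Nkd1, whose product dampens Wnt signalling, rose from 1.39, 1.85 and 1.92 to 9.11, 8.32 and 8.9 FPKM (log2 change 2.07, SE 0.11, limma adjusted p = 1.12e-07). Abcc9, the sulfonylurea receptor subunit of ATP-sensitive potassium channels, rose from 1.74, 2.44 and 2.53 to 12.3, 12.8 and 10.9 FPKM. All of these started from low control levels, of which 6.82 FPKM was the highest. Csdc2 (log2 change 2.28), an RNA-binding cold shock domain protein, and Lyve1 (2.13), a hyaluronan receptor, rose from still lower levels. Ptgr1, a prostaglandin reductase, combined a large rise with a high level, from 95, 82.5 and 91.3 to 256, 261 and 277 FPKM (log2 change 1.56, SE 0.14, limma adjusted p = 9.07e-06). Smoc2, a secreted matricellular protein, rose from 31.9, 30.3 and 28.2 to 93.9, 91.2 and 94.5 FPKM. Ptprn, a protein of secretory vesicles, rose by 1.69, Emb by 1.76, Dhrs3, a retinal reductase, by 1.66, Lrrc15 by 1.63, Rrad by 1.54 and Dusp27 by 1.44 on the log2 scale. Mt2A, a metallothionein, rose from 24.8, 15.8 and 22.4 to 52.9, 55.6 and 63.1 FPKM with the widest control spread of these genes (log2 change 1.44, SE 0.35, limma adjusted p = 0.0182). The call of Mt2A was lost without shLuci replicate 2, shRac1+OGD replicate 2 or shRac1+OGD replicate 3.

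**Figure D2:**
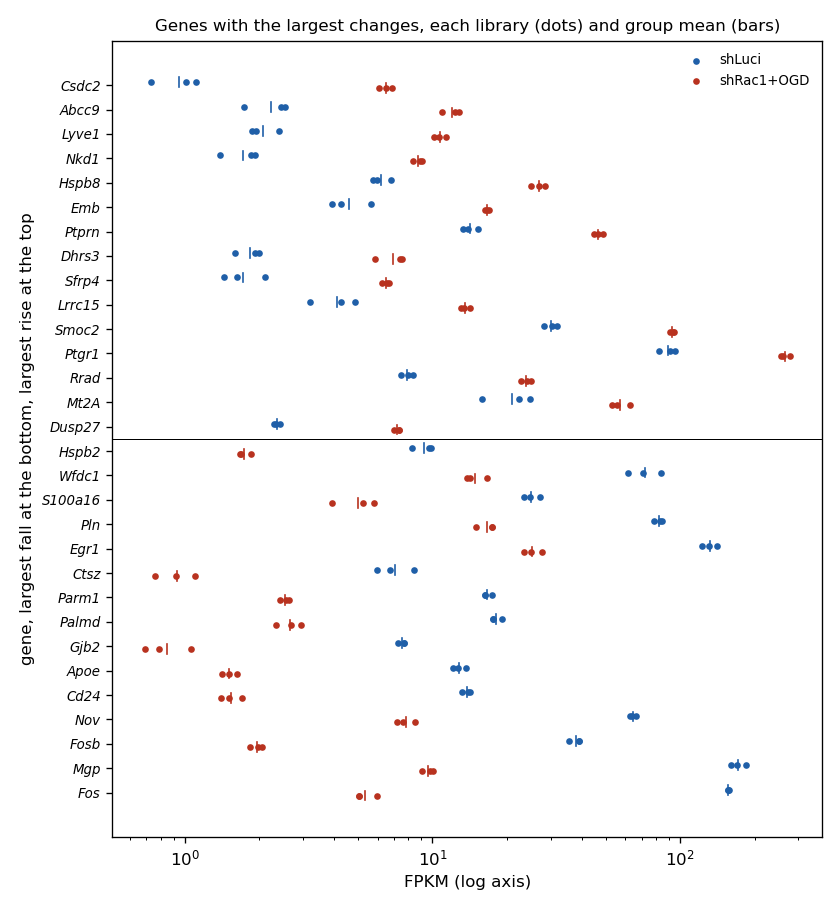
FPKM on a log axis in each of the 3 shLuci libraries (blue dots) and the 3 shRac1+OGD libraries (red dots), with bars at the group means, for the 15 genes with the largest fall (below the line) and the 15 with the largest rise (above it) chosen by fixed limits on level and overlap. The groups do not overlap for any of the 30, which the choice of genes required.

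Called genes were also ranked by the absolute difference in mean FPKM. Penk, which encodes proenkephalin, fell from 1118, 1021 and 928 to 529, 518 and 548 FPKM, and Bgn, the proteoglycan biglycan, from 1186, 1137 and 1077 to 864, 834 and 842 FPKM. Serpinh1, the collagen chaperone, fell from 1254, 1175 and 1136 to 934, 941 and 985 FPKM, Fstl1 from 776, 813 and 841 to 530.1, 536 and 536 FPKM and Ccdc80 from 562, 572 and 584 to 374, 365 and 375 FPKM. Cyr61, a matricellular protein and target of the coactivator YAP, fell from 741, 709 and 650.3 to 497, 489.9 and 506 FPKM. These falls were moderate as ratios, with log2 changes from -0.94 to -0.32. In the other direction, Spp1, which encodes osteopontin, rose from 575, 558 and 593 to 824, 820.3 and 839 FPKM, and Lox, lysyl oxidase, from 304, 349 and 364 to 587, 591 and 567 FPKM. Eef2, the translation elongation factor, rose from 880.1, 857 and 814 to 1032, 1034 and 1068 FPKM. The calls of Lox (limma adjusted p = 0.0376) and Eef2 (limma adjusted p = 0.0467) were lost whichever of the 6 libraries was left out, and Lox overlaps Zfp474 in the table. The call of Serpinh1 was lost without shLuci replicate 1, shLuci replicate 2, shRac1+OGD replicate 1 or shRac1+OGD replicate 2, and that of Fstl1 without any compared library but shLuci replicate 1. On the TPM scale Cyr61 and Bgn were not called either. After quantile normalization Penk alone of the genes named in this paragraph was called. Spp1 (limma adjusted p = 0.0791) and Ccdc80 (limma adjusted p = 0.0555) were among those lost there.

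Genes of bone formation moved in both directions, with inhibitors and inducers of mineralisation among the falls. Of 22 tested osteogenic genes 7 fell, 3 rose and 12 were not called, with a median log2 change of 0.09. Besides Mgp, Alpl, the alkaline phosphatase of mineralising cells, fell from 30.1, 30.3 and 25.9 to 8.13, 7.17 and 8.07 FPKM (log2 change -1.82, SE 0.10, limma adjusted p = 1.59e-07). Bmp4, a bone morphogenetic protein, fell from 22.4, 20.4 and 20.8 to 6.36, 5.99 and 6.57 FPKM (log2 change -1.67, SE 0.07, limma adjusted p = 1.59e-08). Bmp2 (-0.91), the parathyroid hormone receptor gene Pth1r (-0.70) and the homeobox gene Msx1 (-0.45) also fell. Runx2, the master factor of osteoblasts, went from 4.98, 5.13 and 4.97 to 3.86, 3.79 and 3.03 FPKM, a call lost whichever of the 6 libraries was left out (limma adjusted p = 0.0486 with all). The risers were Spp1 (0.53), Enpp1 (0.97), which makes the mineralisation inhibitor pyrophosphate, and the homeobox gene Msx2 (1.22). Spp1 was not called after quantile normalization. Without shLuci replicate 1 or shRac1+OGD replicate 2 the count of falls was 4, and without BMSC replicate 2 it was 8, with 6 rises.

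Collagen VI genes and some other matrix genes fell, while the main fibrillar collagen was not called. Of 36 tested collagen and fibrillar matrix genes 7 fell, 2 rose and 27 were not called (median log2 change -0.02, and 0.01 on the TPM scale and after quantile normalization). Col6a2 fell from 252, 252 and 228 to 119.6, 117 and 119 FPKM (limma adjusted p = 8.22e-06, log2 change -1.04, SE 0.09), and its chromosomal neighbour Col6a1 from 278, 295 and 273 to 124, 123 and 116 FPKM. Col5a3 (-1.04) and Col15a1 (-1.28) fell as well. Col1a1, the most abundant collagen chain of bone, stood at 4250.0, 4067 and 3716 against 3635, 3471 and 3527 FPKM and was not called (log2 change -0.18, limma adjusted p = 0.486). Of 6 small leucine-rich proteoglycans Bgn and Prelp fell, and Bgn was not called on the TPM scale or after quantile normalization. Among 23 matrix proteases and inhibitors, the gelatinase Mmp2 fell from 283, 287 and 270.0 to 192, 194 and 197 FPKM, and Serpine2, a protease inhibitor, rose from 96.6, 89.7 and 88.4 to 137, 137 and 148 FPKM, with 3 falls and 5 rises in all. The count of collagen and matrix falls was 4 without shLuci replicate 1, shLuci replicate 2 or shRac1+OGD replicate 2 and 11 without BMSC replicate 2, where 8 members of the list rose. The 2 rises were 1 in each fit that left out a compared library, and on the TPM scale the list gave 4 falls and 0 rises. The 5 protease and inhibitor rises were 3 in each fit that left out a compared library, and the list gave 3 rises and 5 falls after median-of-ratios scaling and 6 falls after quantile normalization.

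Most genes of the TGF-beta family were not called. Of 33 tested genes of TGF-beta and BMP signalling 8 fell, 4 rose and 21 were not called, with a median log2 change of -0.12. Among ligands, Tgfb2 fell from 161, 166 and 156 to 97.8, 95.6 and 94.8 FPKM (log2 change -0.74, SE 0.07, limma adjusted p = 8.95e-06). The activin subunit Inhbb fell by 1.22 and Tgfb3 by 0.40 on the log2 scale, whereas Tgfb1 stood at 124, 118 and 103 against 96.2, 87.7 and 93.8 FPKM and was not called (limma adjusted p = 0.0505). The inhibitory Smad genes Smad6 (-0.50) and Smad7 (-0.51), the inhibitor of differentiation Id4 (-0.65) and the ligand-binding antagonists Fstl3 (-1.56) and Chrd (-0.43) fell. Grem1, a secreted BMP antagonist, rose by 1.09 on the log2 scale. Tgfbi, a TGF-beta-induced matrix protein, rose from 9.13, 9.81 and 8.77 to 20.5, 19.8 and 20.6 FPKM, and Ltbp3, which anchors latent TGF-beta, rose by 0.51. Without BMSC replicate 2 the list gave 13 falls and 8 rises.

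Secreted trophic factors fell more often than they rose. Of 27 tested members 9 fell, 1 rose and 17 were not called, and the median log2 change was -0.29. Gas6, the ligand of the TAM receptor kinases, fell from 151, 145 and 133 to 65.4, 62 and 65.7 FPKM (log2 change -1.15, SE 0.07, limma adjusted p = 5.26e-07). Cxcl12, the chemokine that retains blood stem cells in the marrow, fell from 23.9, 26.1 and 24.9 to 13.9, 12.3 and 13.5 FPKM. Pdgfd fell by 1.13 and Csf1, the macrophage growth factor, by 0.78 on the log2 scale. Igf1 (1.47, 1.37 and 1.84 to 0.0372, 0.253 and 0.0428 FPKM) and Fgf10 (1.57, 1.48 and 1.61 to 0.271, 0.271 and 0.24 FPKM) fell to values below the 1 FPKM of the filter. Fgf2, the basic fibroblast growth factor, was the member that rose (1.15). Vegfa, with a log2 change of -0.48, and Bdnf, with -0.04, were not called. In the IGF system, with 4 falls and 2 rises among 15 genes, Igfbp6, a binding protein with preference for IGF-II, rose from 10.5, 10.2 and 9.05 to 26.9, 23.5 and 29.1 FPKM. Without BMSC replicate 2 the trophic list gave 13 falls and 5 rises, and 4 IGF falls became 2 without shLuci replicate 1, shLuci replicate 2 or shRac1+OGD replicate 1. The IGF rises were 1 without shLuci replicate 3 or shRac1+OGD replicate 1, and the trophic rises were 2 after median-of-ratios scaling or quantile normalization.

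Of 24 Wnt genes 4 rose and 2 fell, against 5.87% and 4.89% of all tested genes. Sfrp4, a secreted Wnt antagonist, rose from 1.44, 2.11 and 1.62 to 6.28, 6.53 and 6.65 FPKM, and Sfrp1 from 1.8, 1.83 and 1.46 to 2.99, 2.32 and 2.15 FPKM, beside Nkd1 and the ligand Wnt10b (1, 0.854 and 0.966 to 2.43, 2.26 and 1.7 FPKM). The receptor Fzd1 (-0.75) and Nkd2 (-0.24), of the same family as Nkd1, fell. The falls called were 1 without shRac1+OGD replicate 1 and 0 without any of the other compared libraries. The call of Sfrp1 was lost without shLuci replicate 1, shLuci replicate 3, shRac1+OGD replicate 1 or shRac1+OGD replicate 2. Without BMSC replicate 2 the list gave 7 rises and 6 falls, and the falls were 0 on the TPM scale and 4 after quantile normalization.

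**Figure D3:**
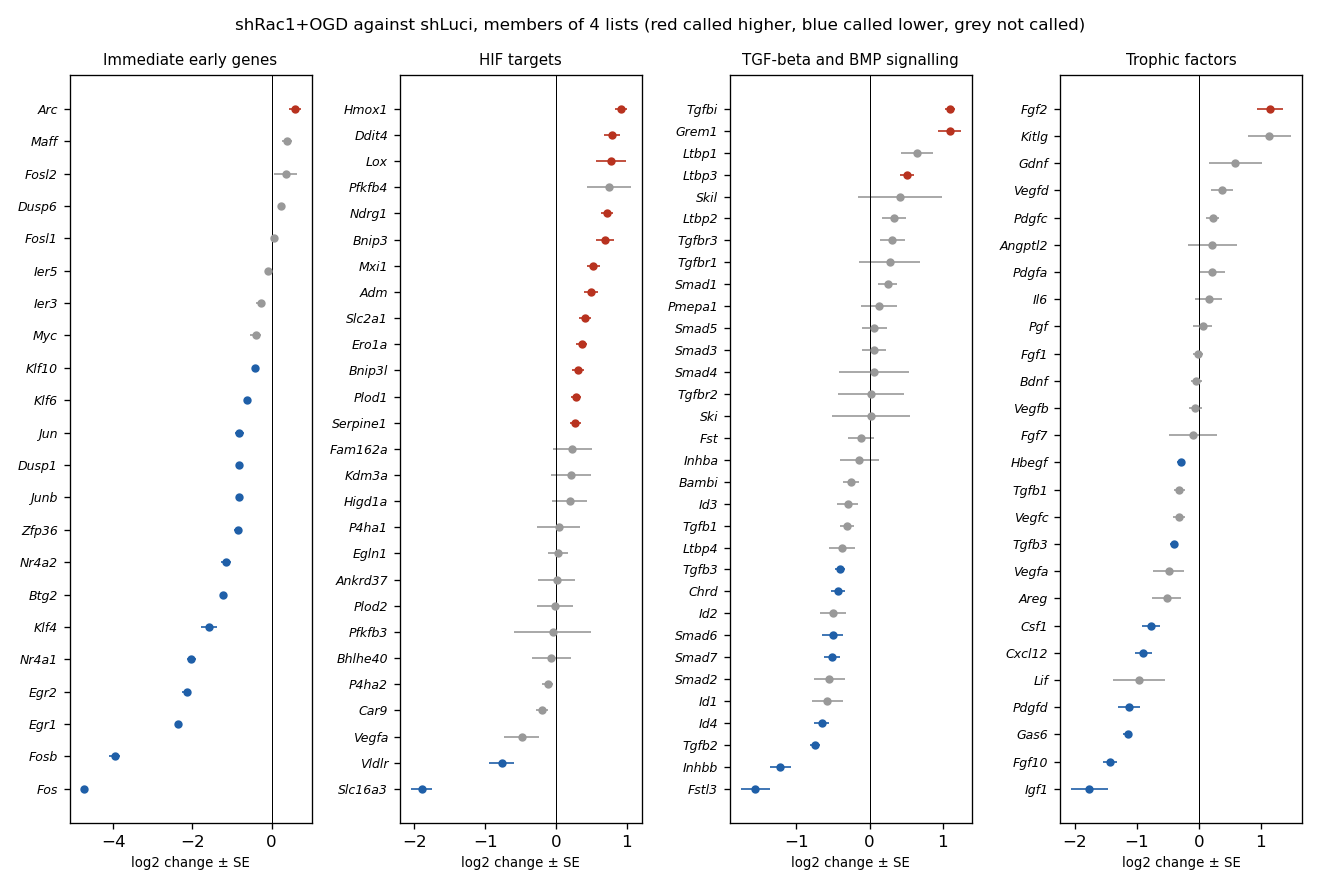
Log2 change of shRac1+OGD against shLuci (x axis, points with bars of 1 SE) for the tested members of the immediate early, HIF target, TGF-beta and BMP, and trophic factor lists that are reported here, red for called higher, blue for called lower and grey for not called. In the immediate early list 14 of 22 points are blue, and in the HIF list 12 of 27 are red.

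HIF target genes rose more often than they fell, at modest size. Of 27 tested members 12 rose, 2 fell and 13 were not called, with a median log2 change of 0.23. Hmox1, heme oxygenase 1, which is also an NRF2 target, rose from 40.5, 40.0 and 36 to 70.5, 76.3 and 74.5 FPKM (log2 change 0.92, SE 0.08, limma adjusted p = 1.36e-05). Ndrg1 rose from 3, 3.64 and 3.34 to 5.97, 5.66 and 5.75 FPKM and Ddit4, an inhibitor of mTOR, from 11.2, 11.8 and 10.3 to 19.9, 19.2 and 19.6 FPKM. The mitophagy receptors Bnip3 (0.70) and Bnip3l (0.31), the glucose transporter Slc2a1 (0.41) and adrenomedullin, Adm (0.49), rose too. Slc16a3, the lactate exporter, ran the other way and fell from 6.71, 6.15 and 5.01 to 1, 1.65 and 1.07 FPKM (log2 change -1.90, SE 0.15, limma adjusted p = 4.37e-06), as did Vldlr (-0.77). Car9, a carbonic anhydrase widely used as a hypoxia marker, stood at 183, 169.9 and 162 against 151, 148 and 149 FPKM and was not called (log2 change -0.20, limma adjusted p = 0.231). Leaving out 1 compared library gave 8 or 9 rises, and 1 fall except without shLuci replicate 1, and leaving out BMSC replicate 2 gave 13 rises and 4 falls. On the TPM scale 7 members rose and 1 fell, and after quantile normalization 8 rose and 2 fell.

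Glycolytic enzymes rose in 8 of 21 cases with 0 falls, and 13 were not called (median log2 change 0.26). At an unadjusted p below 0.05, 13 were higher and 1 was lower. Gpi, which isomerises glucose 6-phosphate, rose from 165, 158 and 141 to 216, 216 and 215 FPKM, Pfkm, the muscle phosphofructokinase, from 17, 16.2 and 15.7 to 24, 25.7 and 25.5 FPKM, and Tpi1, which overlaps Spsb2 in the table, from 159, 148 and 155 to 199.5, 206 and 212 FPKM. Gapdh stood at 1713, 1561 and 1539 against 1672, 1687 and 1745 FPKM and was not called. The summed level of the list was 5476, 5165 and 5079 FPKM in the shLuci libraries and 5962, 5972 and 6185 FPKM in the others, with no overlap. The call of Gpi was lost without shLuci replicate 3. The count of rises was 4 whichever compared library was left out and 4 after median-of-ratios scaling, and without BMSC replicate 2 it was 14, with 2 falls.

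Antioxidant genes rose in 7 of 36 cases and fell in 1 (median log2 change 0.23). Nqo1, a quinone reductase that is a standard NRF2 target, rose from 159, 150.2 and 147 to 291, 289 and 319 FPKM (limma adjusted p = 9.35e-05, log2 change 0.98, SE 0.11), and Gsta1, a glutathione transferase, from 17.7, 15.9 and 18.7 to 39.5, 42.3 and 42.5 FPKM. Sod3, the extracellular superoxide dismutase, was the member that fell, from 31.9, 30.9 and 26.3 to 9.18, 9.91 and 10.1 FPKM. The count of rises was 4 without shLuci replicate 1 or any of the shRac1+OGD libraries, and 22 (with 4 falls) without BMSC replicate 2. The antioxidant falls were 2 on the TPM scale and after quantile normalization. Among 6 tested genes of NADPH oxidases and xanthine oxidase, Nox4, the constitutively active oxidase, fell from 5.31, 5.39 and 6.47 to 1.7, 1.86 and 1.81 FPKM (log2 change -1.44, SE 0.12, limma adjusted p = 4.32e-06). Cyba, the p22phox subunit that Nox4 needs, fell from 176, 160.4 and 146 to 83.7, 85.1 and 89.7 FPKM, a call lost whichever of the 6 libraries was left out and after median-of-ratios scaling (limma adjusted p = 0.0426 with all and no further scaling). Xdh, xanthine oxidoreductase, a source of superoxide on reoxygenation, rose from 1.03, 0.97 and 1.04 to 4.47, 4.74 and 4.57 FPKM (log2 change 1.75, SE 0.09, limma adjusted p = 1.52e-07).

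Heat shock genes rose in 5 of 26 cases (3 without shLuci replicate 3 or any of the shRac1+OGD libraries) and fell in 3. Over all tested genes 5.87% rose and 4.89% fell. The small heat shock proteins split. Against the rise of Hspb8, Cryab, alpha B crystallin, fell from 241, 214 and 211 to 85.3, 81.8 and 83.8 FPKM (limma adjusted p = 0.00044, log2 change -1.40, SE 0.20), and its neighbour Hspb2 fell from 9.9, 9.7 and 8.23 to 1.68, 1.86 and 1.66 FPKM. These neighbours lie on chromosome 8 on opposite strands without overlap (55176847 to 55177818 for Hspb2 and 55178289 to 55182545 for Cryab). Bag3, the partner of Hspb8, rose by 0.24. Hspa1b fell by 0.58, but it has a near-identical copy, Hspa1a, so its reads may be split and its value is uncertain. Targets of ATF4, the factor of the integrated stress response, fell in 8 of 34 cases and rose in 1 (median log2 change -0.14). The amino acid transporter genes Slc7a5 (77.7, 76.8 and 70.3 to 47.5, 44 and 45.7 FPKM) and Slc3a2 (136, 134 and 122 to 84.8, 84.8 and 86.8 FPKM), whose proteins form a dimer, fell, and so did Atf3 (5.24, 4.76 and 4.23 to 2.24, 2.37 and 2.38 FPKM). Atf4 itself stood at 294, 272 and 251 against 249, 248 and 262 FPKM and was not called. The ATF4 count was 4 without shLuci replicate 2, shRac1+OGD replicate 1 or shRac1+OGD replicate 2, 5 without shLuci replicate 1 and 12, with 4 rises, without BMSC replicate 2. Among 22 endoplasmic reticulum folding factors 2 rose (Derl1 and Hsp90b1) and 2 fell (Hspa5 and Herpud1). Of these Hspa5 alone was called in all fits that left out a compared library. Hspa5 was not called on the TPM scale or after quantile normalization. The folding factors gave 0 rises after median-of-ratios scaling, and 1 rise (Derl1) and 1 fall on the TPM scale. That fall was Calr, which was not called in the main fit. Heat shock genes gave 2 rises and 4 falls on the TPM scale, 3 rises and 5 falls after quantile normalization, and 5 falls without BMSC replicate 2.

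Targets of YAP and TEAD, the effectors of the Hippo pathway, fell in 6 of 20 cases with 0 rises, and the median log2 change was -0.28. At an unadjusted p below 0.05, 10 were lower and 0 higher. Amotl2, a feedback inhibitor of YAP, fell from 174, 178 and 166 to 103, 102 and 97.1 FPKM (log2 change -0.78, SE 0.08, limma adjusted p = 2.47e-05). Ctgf, the most abundant member, stood at 1360.1, 1299 and 1264 against 1050.5, 1041 and 1068 FPKM and was not called. Contractile genes rose in 7 of 28 cases and fell in 1, but their median log2 change was 0.02 against 0.03 for all genes. The summed level of the contractile list was lower, at 15904, 15000 and 14746 FPKM in the shLuci libraries against 14271, 13994 and 14427 FPKM. Cnn1, calponin of smooth muscle, rose from 260.4, 250.5 and 243 to 410.2, 429 and 431 FPKM (limma adjusted p = 9.50e-05, log2 change 0.75, SE 0.09), and Myh11, smooth muscle myosin, from 7, 7.44 and 7.37 to 11.3, 11 and 10.9 FPKM, whereas Smtn, smoothelin, fell from 130.4, 132 and 121 to 96.6, 93.9 and 90.5 FPKM. Acta2, smooth muscle actin and the highest of the list, stood at 3815, 3389 and 3205 against 2771, 2595 and 2736 FPKM. These levels did not overlap, but the gene was not called (log2 change -0.36, SE 0.13, limma adjusted p = 0.118). Without BMSC replicate 2, YAP and TEAD targets gave 10 falls and 3 rises, and contractile genes 11 rises and 5 falls. The contractile falls were 2 on the TPM scale and 3 after quantile normalization.

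Cell cycle genes lay slightly lower. Of 40 mitosis genes 7 fell and 0 rose, 38 had a log2 change below 0, and the median was -0.21. Plk1, a mitotic kinase, fell from 71.3, 74.1 and 68.7 to 55.5, 52.8 and 56.1 FPKM, and Kif4a, a chromosome-associated motor, from 24.4, 26.9 and 28.8 to 18.1, 18.5 and 18.5 FPKM. Neither Plk1 nor Kif4a was called on the TPM scale. Of 45 DNA replication genes 4 fell and 0 rose, 39 lay below 0, and the median was -0.17. At an unadjusted p below 0.05, 14 mitosis and 13 replication genes were lower and 0 higher. Pcna, the sliding clamp, stood at 137, 136 and 142 against 121, 119.8 and 125 FPKM and was not called. The mitosis count was 2 without shLuci replicate 1, shLuci replicate 2, shRac1+OGD replicate 1 or shRac1+OGD replicate 2, 3 without either other compared library, and 2 on the TPM scale. The replication count was 0 without shLuci replicate 1, shLuci replicate 2, shRac1+OGD replicate 2 or shRac1+OGD replicate 3, 1 without shRac1+OGD replicate 1 and 2 without shLuci replicate 3, and it was 2 after median-of-ratios scaling and 1 on the TPM scale. Each of the lists gave 19 falls and 0 rises without BMSC replicate 2. Of 26 p53 targets 5 fell and 1 rose, with Btg2 the largest fall, and the falls were 3 without shLuci replicate 2 or any of the shRac1+OGD libraries and 3 after median-of-ratios scaling. No p53 target rose on the TPM scale, after quantile normalization, or without shLuci replicate 1, shLuci replicate 2, shRac1+OGD replicate 2 or shRac1+OGD replicate 3.

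Cholesterol synthesis genes rose in 5 of 27 cases with 0 falls, and the median log2 change was 0.19. At an unadjusted p below 0.05, 9 were higher and 0 lower. Srebf2, the sterol-sensing transcription factor, rose from 29.7, 31 and 27.8 to 40.8, 38.4 and 37.8 FPKM (log2 change 0.40, SE 0.08, limma adjusted p = 0.00681). The count of rises was 2 on the TPM scale, where Srebf2 was not called, and 14 without BMSC replicate 2. Of 14 adipogenic genes 4 rose and 2 fell, Scd, a fatty acid desaturase, from 8.6, 9.7 and 11.6 to 23.3, 23.9 and 22.4 FPKM and Lpl, lipoprotein lipase, from 2.26, 2.16 and 2.1 to 1.17, 1.39 and 1.36 FPKM among them. The adipogenic rises were 1 without shLuci replicate 3, shRac1+OGD replicate 1 or shRac1+OGD replicate 2, and 2 without any of the other compared libraries.

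Both cyclooxygenase genes rose. Of 12 tested prostaglandin and endothelin genes 4 rose and 2 fell. Ptgs2, the inducible cyclooxygenase, rose from 40.6, 48.7 and 50.4 to 102, 103 and 96.4 FPKM (limma adjusted p = 0.00607, log2 change 1.10, SE 0.22), and Ptgs1, the constitutive one, from 1.33, 1.68 and 1.96 to 3.61, 3.63 and 3.54 FPKM. The prostaglandin E2 receptor genes Ptger3 (14.5, 13.4 and 14 to 8.58, 8.37 and 8.29 FPKM) and Ptger4 (log2 change -1.12) fell. Edn1, which encodes endothelin 1, stood at 30.9, 33.2 and 33.3 against 26.5, 25.2 and 25.4 FPKM and was not called (log2 change -0.33, limma adjusted p = 0.438). Of 21 chemokine and NF-kB genes 6 fell and 2 rose. Cxcl1, a neutrophil attractant, fell from 37.9, 34.9 and 35.9 to 18.6, 20.0 and 21.2 FPKM, and Cxcl16 rose from 8.12, 8.15 and 7.06 to 16.8, 15.7 and 15.7 FPKM. Interferon and antigen processing genes gave 2 rises and 1 fall among 31, with 1 rise without shLuci replicate 3, shRac1+OGD replicate 1 or shRac1+OGD replicate 2. Over all tested genes 5.87% rose and 4.89% fell, so the interferon list did not stand out by its counts.

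Of 25 integrin, laminin and cadherin genes 3 rose and 0 fell (6 higher and 0 lower at an unadjusted p below 0.05). Of all 11515 tested genes 5.87% rose and 4.89% fell, and 2425 had an unadjusted p below 0.05 in either direction. Itga5, the fibronectin receptor subunit, rose from 53.3, 53.5 and 51.4 to 103, 104 and 97.8 FPKM (limma adjusted p = 3.58e-05, log2 change 0.94, SE 0.10), and the laminin chain Lama5 from 2.84, 3.1 and 2.95 to 9.2, 9.27 and 7.81 FPKM. Of 38 guidance genes 7 fell and 4 rose. The guidance falls were 5 whichever compared library was left out and 5 on the TPM scale, and the rises were 2 without shRac1+OGD replicate 1. The ephrin Efnb1 fell from 50.1, 50.6 and 50.7 to 24.6, 24 and 25.1 FPKM, and Olfm1 rose from 0.473, 0.744 and 0.404 to 3.96, 4.02 and 4.13 FPKM. Among 8 regulators of G protein signalling, which shorten the signal of G protein-coupled receptors, Rgs16 fell from 133, 121 and 117 to 35.7, 35.5 and 38.8 FPKM (limma adjusted p = 2.06e-08, log2 change -1.74, SE 0.07), and Rgs14 rose. Integrins and their group gave 9 rises and 1 fall, and guidance genes 11 rises and 12 falls, without BMSC replicate 2. After quantile normalization 5 integrin, laminin and cadherin genes rose and Rgs14 was not called.

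No member was called among 84 cytosolic ribosomal protein genes, 79 nuclear respiratory chain genes, 12 mitochondrially encoded genes or 18 core clock genes in limma with all 15 libraries. At an unadjusted p below 0.05 there were 0 ribosomal, 4 respiratory, 1 mitochondrially encoded and 3 clock genes. The counts of called genes were 3, 8, 3 and 4 without BMSC replicate 2, and 1 ribosomal gene was called without shLuci replicate 3. After quantile normalization 2 clock genes and 1 ribosomal gene were called, and on the TPM scale 1 respiratory gene. The share of total FPKM taken by ribosomal protein genes was 9.3% ± 0.51 (SD, n = 3) in the shLuci libraries and 9.15% ± 0.219 (SD, n = 3) in the libraries labelled shRac1+OGD. In lists described above, leaving out BMSC replicate 2 gave 11 rises and 8 falls for lysosome genes, 4 and 7 for folding factors and 8 and 2 for interferon genes. It gave 5 and 6 for p53 targets, 7 and 2 for adipogenic genes, and 9 and 6 for matrix proteases and inhibitors. The same fit called 1937 of all 11515 tested genes higher and 1422 lower, so larger list counts there alone mark no list.

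**Figure D4:**
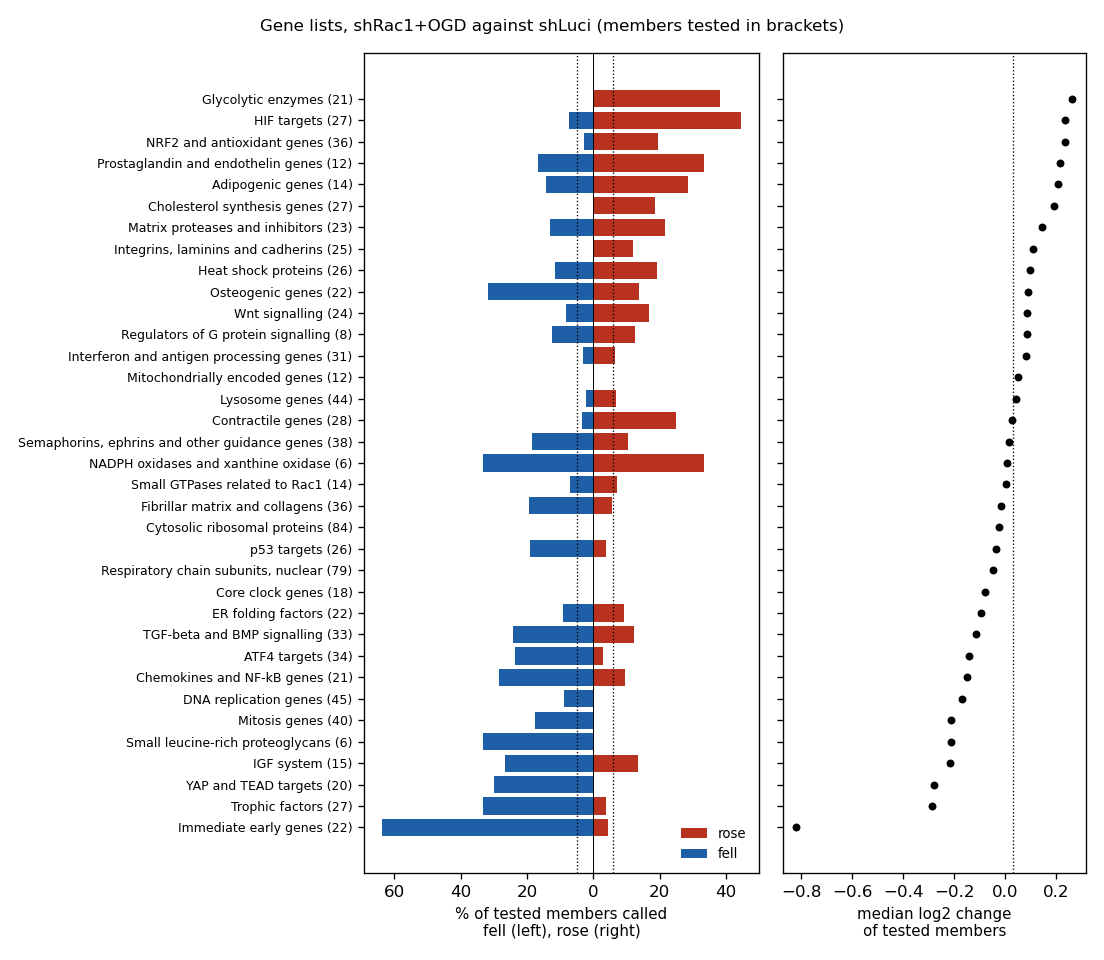
Left, the percentage of tested members of each of 35 gene lists called higher (red, to the right) or lower (blue, to the left), with dotted lines at the 5.87% and 4.89% of all tested genes; right, the median log2 change of each list, with a dotted line at 0.03, the median of all genes. The immediate early list has the lowest median, -0.82, and the glycolytic list the highest, 0.26.

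The labelled cell type was checked against markers. Of 16 surface marker symbols of mesenchymal stem cells 9 were tested. Thy1 (CD90) stood at 783, 759 and 738 against 584, 591 and 609 FPKM and fell, a call lost without shLuci replicate 1, shLuci replicate 2, shRac1+OGD replicate 1 or shRac1+OGD replicate 2. Itgb1 (CD29) stood at 461, 495 and 521 against 496, 512 and 506 FPKM and Cd44 at 53.3, 57.7 and 64.1 against 60.6, 60.9 and 58.5 FPKM, neither called. Anpep (CD13) rose from 2.28, 2.36 and 1.93 to 5.34, 5.95 and 5.41 FPKM (log2 change 1.18, SE 0.10, limma adjusted p = 4.72e-06). Apart from Gzmb, the tested markers of blood cells were low. Of 15 macrophage symbols 3 were tested and none called, with summed levels of 8.03 to 10.2 FPKM in the shLuci libraries and 10.5 to 11.3 FPKM in the others. Their log2 changes ran from -0.05 to 0.26, with a median of 0.26. Cd68 stood at 0.923, 0.769 and 0.79 against 1.01, 0.578 and 0.777 FPKM, and Cd14 was called higher without BMSC replicate 2 (limma adjusted p = 0.0346). None of 13 erythroid symbols was analysed here, and the tested neutrophil marker Ngp stayed between 0.346 and 1.27 FPKM. Gzmb, the only tested gene of 12 lymphocyte symbols, fell from 15.3, 14.5 and 15.6 to 4.23, 4.03 and 4.41 FPKM. Of the endothelial markers Flt1 fell from 1.21, 1.31 and 1.45 to 0.122, 0.0899 and 0.192 FPKM while Erg was not called. Sox9, on the chondrocyte list, fell from 40.5, 40.9 and 36.9 to 24.7, 23.7 and 23.6 FPKM, a call lost without any of the compared libraries but shLuci replicate 3, and Acan was not called. In bulk RNA, fewer cells of a type and less RNA per cell cannot be told apart, and the part of cell mixture in the results was not tested.

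The other infected groups give the level of each gene with 1 of the 2 differences alone, and since they share libraries with the contrast above only their values are set side by side. Fos averaged 169 ± 7.15 FPKM in shRac1 and 13.4 ± 1.13 FPKM in shLuci+OGD, next to 157 ± 0.976 in shLuci and 5.36 ± 0.528 in shRac1+OGD (mean ± SD, n = 3 in each group). Egr1 averaged 143 ± 8.31 FPKM in shRac1 and 28.9 ± 0.487 FPKM in shLuci+OGD. Both genes were thus high in both undeprived infected groups and low in both deprived ones. For Mgp the pattern was another, with 172 ± 12.8 FPKM in shLuci, 0.409 ± 0.255 in shRac1, 0.549 ± 0.103 in shLuci+OGD, 9.63 ± 0.488 in shRac1+OGD and 7.41 ± 2.6 in uninfected cells, so that the shLuci libraries stood above all others. Nov was also highest in shLuci, at 64.4 ± 2.01 FPKM against 14.9 ± 1.18 in shRac1, 7 ± 0.172 in shLuci+OGD and 13.4 ± 3.15 in uninfected cells. Nkd1 was low in the shLuci libraries alone, with group means of 9 ± 0.754 FPKM in uninfected cells, 8.16 ± 0.592 in shRac1, 9.34 ± 0.295 in shLuci+OGD and 8.78 ± 0.412 in shRac1+OGD. Of the 15 genes named for the largest rise, 14 had their lowest group mean of all 5 groups in shLuci, and of the 15 named for the largest fall, 13 had their highest there. These genes were chosen by their distance from the shLuci libraries, so the counts are a description.

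Some genes lay between the controls and the deprived cells with the control hairpin in group mean. Of the 15 genes named for the largest rise 13 did so, and of the 15 named for the largest fall 11. Xdh averaged 1.02 ± 0.04 FPKM in shLuci, 4.6 ± 0.135 in shRac1+OGD and 18.5 ± 0.54 in shLuci+OGD (mean ± SD, n = 3 in each group). Acta2 averaged 3469.7 ± 313, 2701 ± 93.4 and 1498 ± 146 FPKM in the same order. Edn1 averaged 32.5 ± 1.34, 25.7 ± 0.69 and 3.73 ± 0.284 FPKM, so that the libraries labelled shRac1+OGD lay near the undeprived controls. Cnn1 stood apart from these, with 251 ± 8.9 FPKM in shLuci and 249 ± 12.9 in shLuci+OGD but 423 ± 11.4 in shRac1+OGD. Against shLuci+OGD, the libraries labelled shRac1+OGD had a log2 change of -1.90 for Xdh, 0.85 for Acta2, 2.63 for Edn1 and 0.77 for Cnn1. In that contrast 856 of 11515 tested genes (7.43%) were called. Xdh, Acta2, Edn1 and Cnn1 were picked for their group means, so their log2 changes are a description and carry no test. Their levels in shRac1 and in uninfected cells are not set beside these values, which therefore do not show the part of the hairpin alone.

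**Figure D5:**
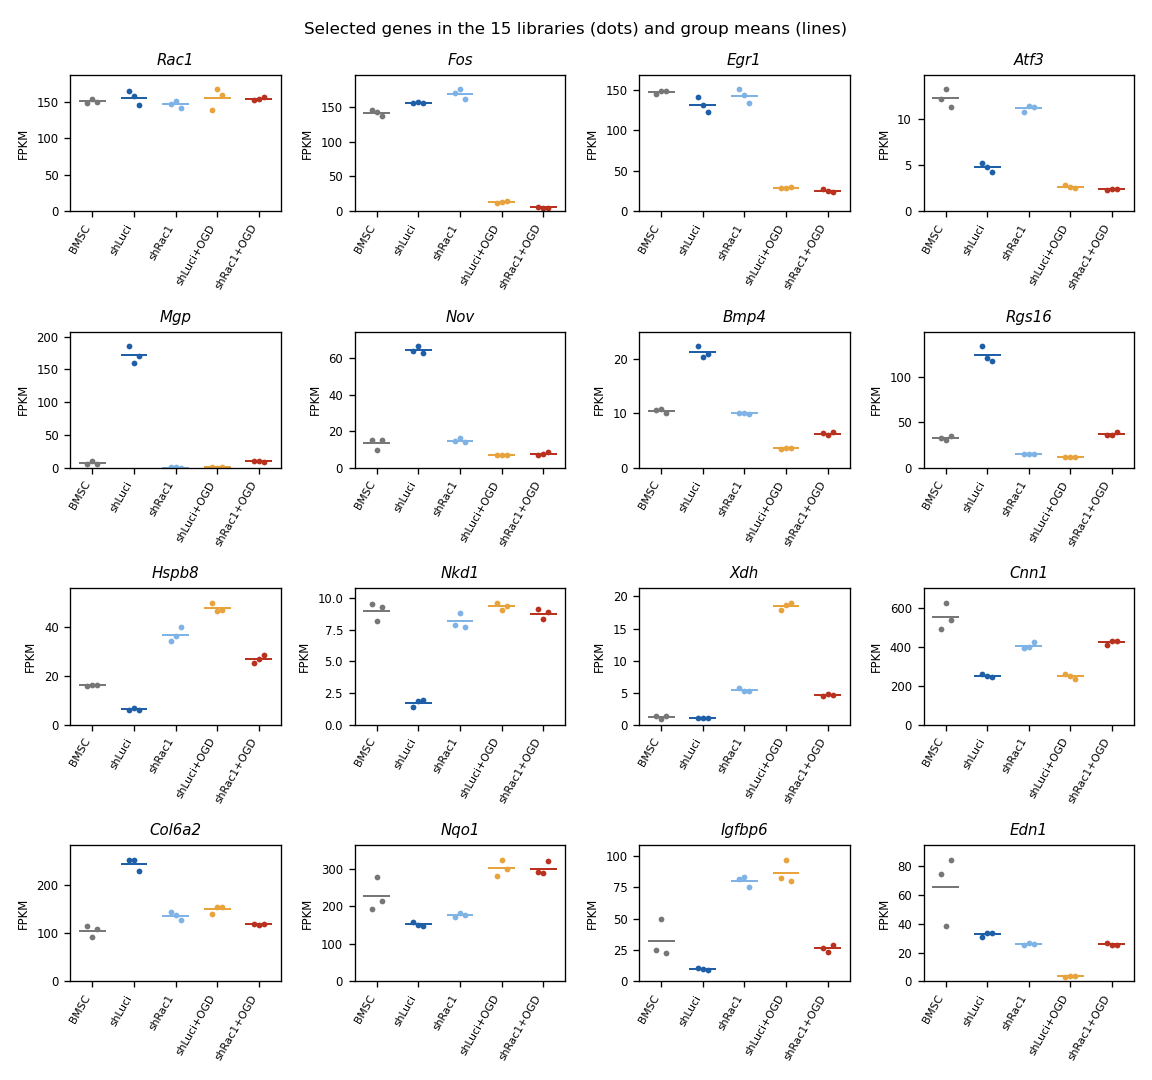
FPKM (linear axis from 0) of 16 genes in the 15 libraries (dots) with group means (lines), for uninfected cells, shLuci, shRac1, shLuci+OGD and shRac1+OGD. Fos and Egr1 are low in both deprived groups, Mgp and Nov are high in shLuci alone, and Rac1 is alike in level in all 5 groups.

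No fold is given for genes that averaged above 10 FPKM over all 15 libraries yet were listed at 0 in some, since such a 0 can be a failed estimate. There were 6, and 3 had a gene name. Nhp2 was listed at 0 in shRac1+OGD replicate 1 and at 58.1 and 61.8 FPKM in replicates 2 and 3, against 65.1, 56.2 and 56.2 FPKM in the shLuci libraries. It was also listed at 0 in all 3 libraries of uninfected cells. Polr2l was listed at 0 in replicate 1 of all 4 infected groups, and Zswim8 in BMSC replicate 2 but in none of the 6 compared libraries.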

How the data were processed

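The deposited table holds FPKM for 12169 genes in each of 15 libraries, as the authors scaled them and per the file headers. The submitters' processing notes list HISAT2, with no version, and StringTie 1.2.3. No genome build is named in the sources used here. The authors' lists of changed genes cover 6 pairs of groups, not the pair compared here by its column letters, and were not used. Read depth is unknown.

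A gene was tested if 3 or more libraries reached 1 FPKM, which kept 11515 and dropped 654. Log2(FPKM + 0.5) was tested two-sided in limma 3.58.1 (R 4.3.3) with a mean-variance trend. The 15 libraries entered 1 model of 5 group means with 10 residual degrees of freedom, and p-values were adjusted by Benjamini and Hochberg over all tested genes. The procedure was tested on simulated data. Alternatives were other pseudocounts, filters and scalings, other sets of libraries, a replicate block, library weights, no trend, and each compared library left out.

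The comparison, the 35 process lists and the 9 marker lists were chosen with earlier results of these data known. The genes named were Rac1, Rac2 and Rac3, the 15 largest rises and 15 largest falls among called genes with a symbol (5 FPKM or more in the higher mean, no 0, groups not overlapping), and the 10 called genes with the largest difference in mean FPKM. Each list added its called members of smallest p, at most 4, and its most abundant uncalled members, at most 2. All tested markers were included. Any other gene named was chosen after its values were seen. Promoters came from RefSeq (GRCr8). Some genes of the lists are counted but not reported here by name.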

Additional observations from a re-analysis of the deposited data

How the results depend on the processing

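The 1239 calls were 1249 and 1202 with a pseudocount of 1 or 0.1, 1363 with no filter, 990 on the TPM scale, 1194 after median-of-ratios scaling, 1396 after quantile normalization and 1218 without the trend. A mean of at least 5 FPKM left 8281 genes and 747 calls (418 higher, 329 lower). There were more calls in fits to other sets of libraries or with weights, 3103 with the compared groups only (1744 higher, 1359 lower), 3312 with the infected groups only (1926 higher, 1386 lower), 3359 without BMSC replicate 2 (1937 higher, 1422 lower) and 7170 with library weights (4019 higher, 3151 lower), whose estimation stopped before convergence. Median-of-ratios scaling of the infected groups, chosen after seeing the data, gave 3298 (1657 higher, 1641 lower). Leaving out 1 of the 6 libraries gave 813 to 893 calls, with 435 to 476 higher and 367 to 435 lower. No called gene changed sign in any of these settings. Of the 146 named genes called, 118 were called in each of the 6 fits that left out a compared library, and 118 on the TPM scale. For Rac1, never called, the log2 change of -0.01 was 0.0105 on the TPM scale and 0.0047 after quantile normalization, and ranged from -0.063 without shLuci replicate 3 to 0.028 without shLuci replicate 1.

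Deviations of replicates with the same number were weakly correlated (0.0666, 0.169 and -0.0773 across genes for numbers 1, 2 and 3), and the numbers were not treated as pairs. With 3 libraries per group, these correlations cannot show that the numbers are unrelated. With a replicate block the count was 1093 over all 15 libraries and 2409 with the compared groups only (1338 higher, 1071 lower). The block over all 15 libraries left 3 falls among mitosis genes and 0 among DNA replication genes, against 7 and 4 in the main fit. Of the shRac1+OGD libraries, replicates 1 and 2 correlated best with the shLuci library of their own number and replicate 3 did not. Depth is unknown, so no counting error can be given for low FPKM.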

Other observations

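Genes of Notch signalling, on none of the lists, were noticed among the largest falls and are given here as values chosen after they were seen, so they carry no test as a group. Notch receptors are cleaved on contact with ligands such as Jag1, and the released part induces repressors of the Hes and Hey families. Hes1 stood at 78.8, 70.7 and 59.3 FPKM in the shLuci libraries and at 20.4, 21.6 and 21.7 FPKM in the libraries labelled shRac1+OGD (log2 change -1.68, SE 0.11). Hey2 stood at 5.34, 6.82 and 5.75 against 1.16, 1.19 and 0.776 FPKM, and Hey1 fell to between 0 and 0.269 FPKM from 1.73, 1.94 and 2.6 FPKM. All of these were called lower, with no overlap between the groups. The ligand Jag1 fell from 38.3, 43.9 and 44.7 to 26.8, 25.7 and 23.5 FPKM, the receptor Notch3 had a log2 change of -1.53, and Nrarp, a feedback inhibitor of the pathway, had -0.85, both called. The receptors Notch1 (-0.04) and Notch2 (0.22) and the DNA-binding factor Rbpj (0.41) were not called. Hes1 averaged 45.4 FPKM in shRac1, 29.1 FPKM in shLuci+OGD and 57.3 FPKM in uninfected cells.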
